A study of Mus musculus with 2 samples.

Results

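Unfolded protein and integrated stress response genes were examined in imiquimod-treated mouse ear epidermis as a set of 31 genes, chosen by name from the known pathway and read by branch. Each of the 31 matched 1 row of the deposited table, which held 26242 named genes with a RefSeq transcript. RNA came from the ear epidermis of C57BL/6 mice after 6 days of 5% imiquimod cream, a Toll-like receptor 7 agonist that produces psoriasis-like inflammation. One group was wild type and the other carried a K14 conditional knockout of Il9ra, the interleukin-9 receptor gene listed in the table as Il9r. K14 is a keratin of basal keratinocytes, so the deletion is directed to K14-expressing cells. Both groups received imiquimod, and ears without imiquimod were not analysed here. Whether the wild-type mice carried a Cre or floxed allele, the age and number of the mice, and any pooling are not stated in the labels. There was 1 library per genotype, so differences have no replicate spread beside them and none was tested.

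Cells that make much secreted and membrane protein rely on the endoplasmic reticulum (ER) to fold it. When unfolded protein accumulates there, sensors in the ER membrane start the unfolded protein response: IRE1 (Ern1) splices Xbp1 mRNA, ATF6 is cut to release a transcription factor, and PERK (Eif2ak3) phosphorylates eIF2-alpha. Other kinases phosphorylate the same site during amino acid lack, viral infection or haem shortage, and this shared arm, the integrated stress response, favours translation of ATF4. Keratinocytes use parts of the response during differentiation, when they make lamellar granules and cross-linked envelope proteins.

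Levels are in FPKM, fragment numbers scaled by transcript length and library depth, so that genes can be compared with each other. A difference is the log2 of knockout over wild type after adding 1 FPKM to each, and low genes therefore appear closer than their FPKM alone. The smallest steps in the values put the depth at about 24000000 fragments for wild type and 31200000 for the knockout. The targeted gene, Il9r, was at 0.039 FPKM in wild type against 0.011 FPKM in the knockout, too low to check the genotype labels. Keratinocyte markers defined the tissue in both, with Krt14 at 7421 and 8083 FPKM, and the fibroblast list summed to 2.53 and 2.07 FPKM. T cell markers summed to 70.6 and 72.8, sebaceous gland markers to 1340 and 1367, hair follicle markers to 25.7 and 19.5 and melanocyte markers to 21.5 and 17.6 FPKM.

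The stress response genes lay at nearly the same level in both libraries. Summed over all 31 genes the level was 1727 FPKM in wild type against 1725 FPKM in the knockout. Of them 30 passed the filter of at least 1 FPKM in either library, Derl3 being the exception, and all 30 also reached 5 FPKM. Of these, 18 were lower and 12 higher in the knockout library, beside 55.6% of all 11886 genes past the filter that were lower. Differences as small as these depend on scaling: Atf4 and Asns turned from lower to higher when the libraries were set to the same upper quartile, which left 16 lower, and Asns did so when differences were centred on the median gene, which left 17 lower. The median difference of the set was -0.04, beside -0.02 for all genes past the filter.

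Sizes were read at a 25% threshold, met when FPKM + 1 in the higher library was at least 25% above that in the other, and at 1.5-fold and 2-fold. A single gene of the set, Ddit3, was lower in the knockout past the 25% threshold, and 0 were higher. Over all genes past the filter, 5.90% were lower and 4.59% higher past this threshold. Among the 8687 genes of at least 5 FPKM, a range closer to that of the set, the shares were 4.79% and 3.42%. The 1 lower gene of 30 is a share near these backgrounds. At 1.5-fold the set had 0 genes in either direction, where 1.44% of all genes were lower and 1.31% higher, and at 2-fold it also had 0, where 0.345% were lower and 0.412% higher. The authors' deposited table holds a test on the reads of both libraries, which says nothing of the spread between mice. Of the named rows in the authors' deposited table, 0.0761% had a q below 0.05, none of the 31 genes was among them, and the smallest p among the 31 was 0.215, for Chac1.

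**Figure D1:**
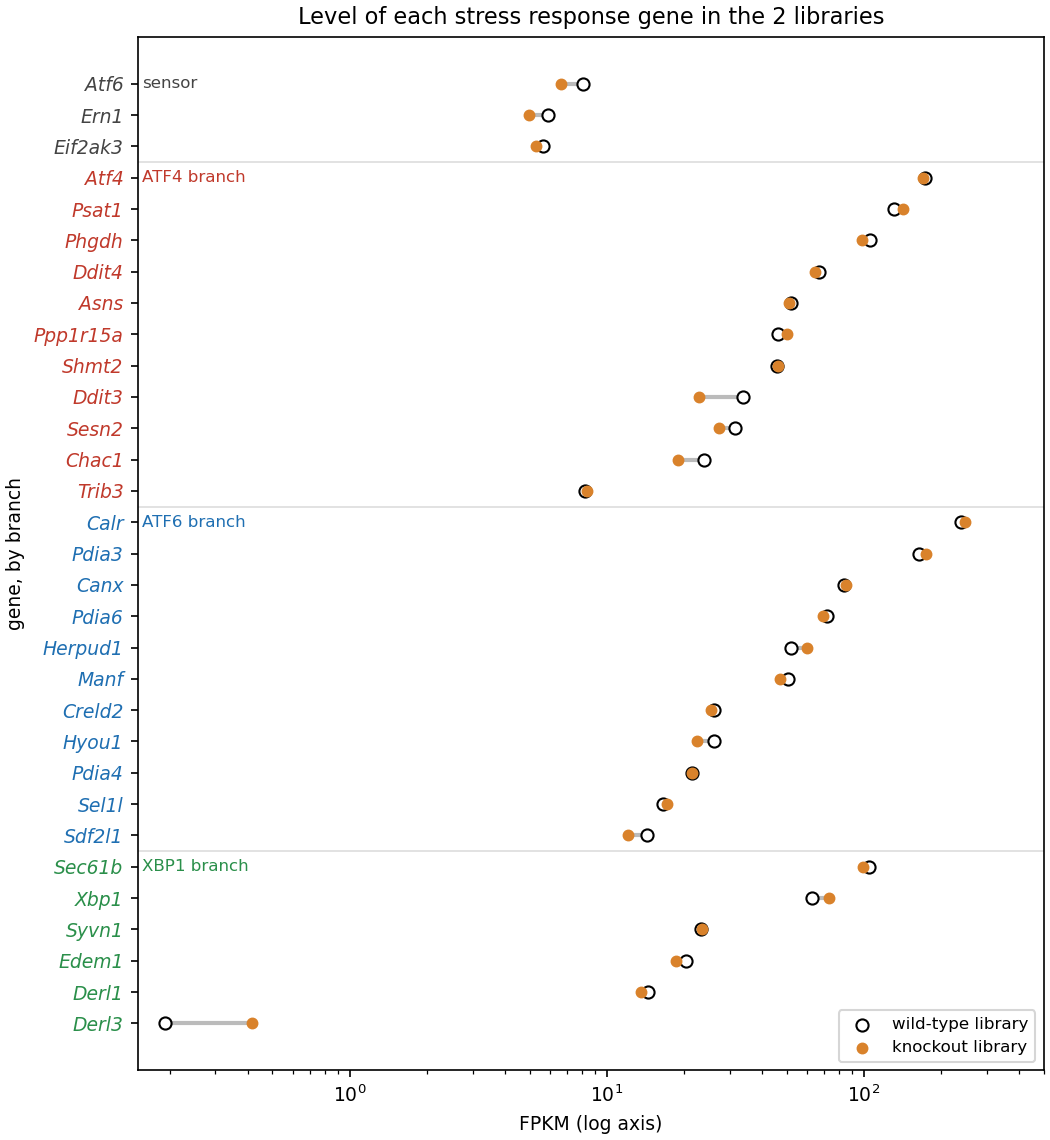
FPKM of the 31 genes in the wild-type library (open circles) and the knockout library (filled circles) on a log axis, grouped as sensors and by branch and ordered by the wild-type level. The paired circles touch or overlap for most genes, the clearest gap above 1 FPKM is that of Ddit3, at 33.9 and 22.9 FPKM, and Derl3 lies far below the rest.

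Promoters are shown for 6 genes that hold an exact copy of a response element of these pathways and whose difference was largest in size among such genes. They let the levels below be read beside the sequence that each branch is known to act on. The windows run from 250 bases before to 50 bases after the annotated start, from RefSeq on GRCm38.p6, and 27 of the 31 genes matched an entry. Searched on both strands were the ER stress element (CCAAT and CCACG with 9 bases between), bound by NF-Y with ATF6 or XBP1; the ER stress element II (ATTGG and CCACG with 1 base between); the unfolded protein response element (TGACGTGG), bound by XBP1 and ATF6; and an amino acid response element (TTGCATCA), a form that ATF4 binds. Capitals mark the fixed bases of a match on either strand. The windows are Chac1 (chr2:119350992-119351291, plus strand), Derl3 (chr10:75893148-75893447, plus strand), Herpud1 (chr8:94386179-94386478, plus strand), Calr (chr8:84846882-84847181, minus strand), Pdia6 (chr12:17266339-17266638, plus strand) and Creld2 (chr15:88819396-88819695, plus strand).
Chac1: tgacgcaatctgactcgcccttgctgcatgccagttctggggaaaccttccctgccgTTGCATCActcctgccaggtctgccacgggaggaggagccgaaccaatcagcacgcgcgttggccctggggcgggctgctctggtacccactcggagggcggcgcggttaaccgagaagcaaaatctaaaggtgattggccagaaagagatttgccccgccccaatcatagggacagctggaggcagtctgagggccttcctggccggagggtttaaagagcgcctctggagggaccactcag
Derl3: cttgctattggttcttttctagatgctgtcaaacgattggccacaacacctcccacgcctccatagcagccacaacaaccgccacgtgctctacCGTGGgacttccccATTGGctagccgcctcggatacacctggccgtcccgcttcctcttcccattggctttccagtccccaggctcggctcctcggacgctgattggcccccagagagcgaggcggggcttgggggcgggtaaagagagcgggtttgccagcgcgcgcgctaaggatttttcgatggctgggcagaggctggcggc
Herpud1: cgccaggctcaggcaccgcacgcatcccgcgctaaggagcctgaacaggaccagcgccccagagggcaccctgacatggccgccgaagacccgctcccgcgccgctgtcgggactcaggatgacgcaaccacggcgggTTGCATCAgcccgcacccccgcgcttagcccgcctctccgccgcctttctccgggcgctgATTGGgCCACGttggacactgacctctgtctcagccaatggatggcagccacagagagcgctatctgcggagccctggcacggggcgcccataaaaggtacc
Calr: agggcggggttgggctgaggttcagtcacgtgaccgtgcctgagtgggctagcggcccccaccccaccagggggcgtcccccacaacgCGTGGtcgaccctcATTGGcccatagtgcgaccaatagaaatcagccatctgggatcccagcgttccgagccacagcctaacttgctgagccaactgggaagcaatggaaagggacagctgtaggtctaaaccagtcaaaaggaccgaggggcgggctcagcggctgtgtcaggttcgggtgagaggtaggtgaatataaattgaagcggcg
Pdia6: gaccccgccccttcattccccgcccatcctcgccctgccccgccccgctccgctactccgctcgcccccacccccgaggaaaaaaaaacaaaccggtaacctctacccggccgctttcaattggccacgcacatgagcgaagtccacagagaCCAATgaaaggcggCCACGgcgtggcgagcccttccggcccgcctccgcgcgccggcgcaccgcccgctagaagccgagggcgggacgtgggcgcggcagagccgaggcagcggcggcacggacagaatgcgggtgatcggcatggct
Creld2: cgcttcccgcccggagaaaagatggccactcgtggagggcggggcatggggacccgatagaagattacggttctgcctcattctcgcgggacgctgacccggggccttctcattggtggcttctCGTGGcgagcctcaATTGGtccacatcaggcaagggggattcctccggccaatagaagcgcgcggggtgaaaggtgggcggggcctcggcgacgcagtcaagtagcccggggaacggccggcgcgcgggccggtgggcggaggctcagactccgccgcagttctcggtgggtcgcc

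An exact ER stress element was present in promoters of 6 of the 27 genes with an entry, Calr, Canx, Creld2, Derl3, Pdia6 and Syvn1, beside 0.119% of 32851 RefSeq promoter windows. Here and below, a gene was counted when any of its windows matched, whereas the shares beside it are over single windows. Herpud1 held both an ER stress element II, found in 0.0365% of windows, and an amino acid response element, found in 0.895%. Chac1 held the amino acid response element 186 bases before its start. The unfolded protein response element, found in 0.676% of windows, was in 0 of the 27. None of the matches overlapped another. A match is a description of the letters, and the table gives no binding data.

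**Figure D2:**
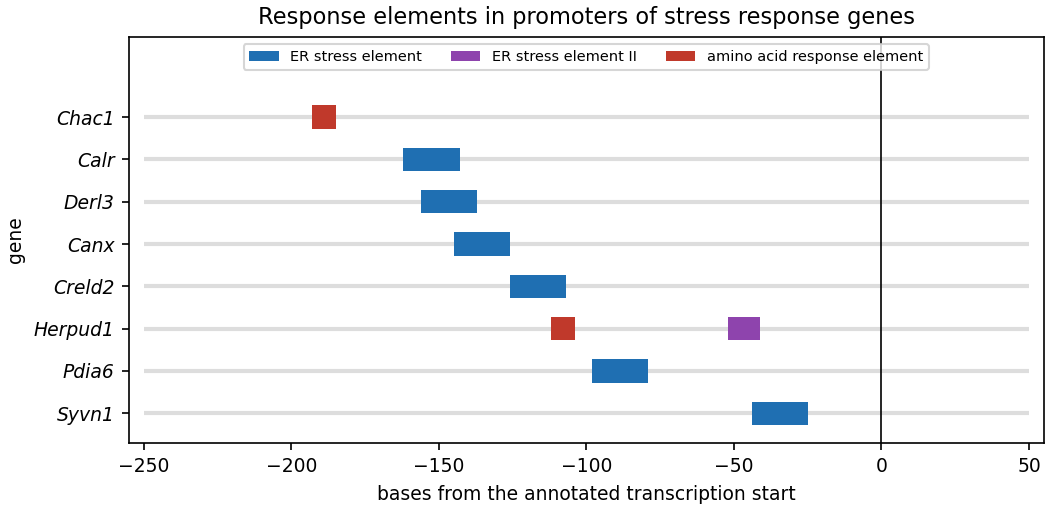
Position of each exact match in the promoters of 8 stress response genes, in bases from the annotated transcription start (0), over the window from 250 bases before to 50 bases after it. All the matches lie before the start, from 193 bases before it in Chac1 to 26 bases before it in Syvn1, and Herpud1 holds matches to 2 kinds of element.

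The 3 sensors were the least abundant genes of the set after Derl3. All 3 were lower in the knockout library, beside 55.6% of all genes past the filter. They were also lower with the libraries at the same upper quartile or centred on the median gene, where 48% and 50% of all genes were lower. Ern1, the IRE1 kinase and endonuclease, was at 5.90 FPKM in wild type against 5.00 FPKM in the knockout, a difference of -0.20. Eif2ak3, the PERK kinase, was at 5.63 and 5.30 FPKM, a difference of -0.07 at percentile 37.4 of genes of at least 5 FPKM. Atf6 was at 8.10 and 6.60 FPKM, a difference of -0.26 that placed it at percentile 7.78 of genes of at least 5 FPKM. None of the 3 passed the 25% threshold, and the rows of Ern1 and Atf6 also hold transcripts assembled from the reads.

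The response factors differed from each other. Atf4 (ENSMUSG00000042406, chromosome 15, 80255184 to 80257541, plus strand, GRCm38), whose protein is controlled mainly through translation, was among the most abundant genes of the set, at 173 FPKM in wild type against 169 FPKM in the knockout. Xbp1 (ENSMUSG00000020484, chromosome 11, 5520659 to 5525893, plus strand) was at 62.6 and 73.4 FPKM, 1.17-fold higher in the knockout library with a difference of 0.23, the highest of the genes past the filter. That value lay at percentile 93.2 of genes of at least 5 FPKM, within their central 90%. A gene-level FPKM sums the spliced and unspliced forms of Xbp1, so it does not measure IRE1 activity.

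Ddit3 (ENSMUSG00000025408, chromosome 10, 127290774 to 127296288, plus strand) encodes CHOP, a transcription factor made under prolonged ER or amino acid stress. It was at 33.9 FPKM in wild type against 22.9 FPKM in the knockout, 1.48-fold lower with a difference of -0.55. About 720 and 640 fragments stood behind these values. Its difference lay at percentile 1.28 of genes of at least 5 FPKM, and the authors' deposited table gave it p = 0.227 and q = 0.999.

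Genes that ATF4 and CHOP are known to activate did not share one direction. Chac1, a glutathione-degrading enzyme whose promoter is shown above, was at 23.8 FPKM in wild type against 18.9 FPKM in the knockout. Its difference of -0.32 was just short of the 25% threshold, at percentile 4.88 of genes of at least 5 FPKM, although the ratio of the FPKM themselves was 1.26. Trib3, a pseudokinase induced by both factors, was at 8.23 and 8.35 FPKM. Sesn2 and Ddit4 encode stress-induced inhibitors of mTORC1. Sesn2 was at 31.4 and 27.2 FPKM, a difference of -0.20, and Ddit4 was at 66.8 and 64.6 FPKM. Ppp1r15a, or GADD34, the phosphatase subunit that reverses eIF2-alpha phosphorylation, was at 46.5 and 49.9 FPKM, a difference of 0.10.

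Amino acid synthesis genes of the ATF4 branch were level between the libraries. Phgdh, which opens serine synthesis from a glycolytic intermediate, was at 106 FPKM in wild type against 98.5 FPKM in the knockout. Psat1, the next enzyme, was at 131 and 141 FPKM. Shmt2, the mitochondrial serine hydroxymethyltransferase, was at 46.1 and 46.2 FPKM, and Asns, asparagine synthetase, was at 51.8 and 51.0 FPKM. The 4 genes summed to 335 and 337 FPKM. Over the 11 genes of the ATF4 branch the median difference was -0.03, with 4 higher and 7 lower, and it was 0.00 with the libraries at the same upper quartile.

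**Figure D3:**
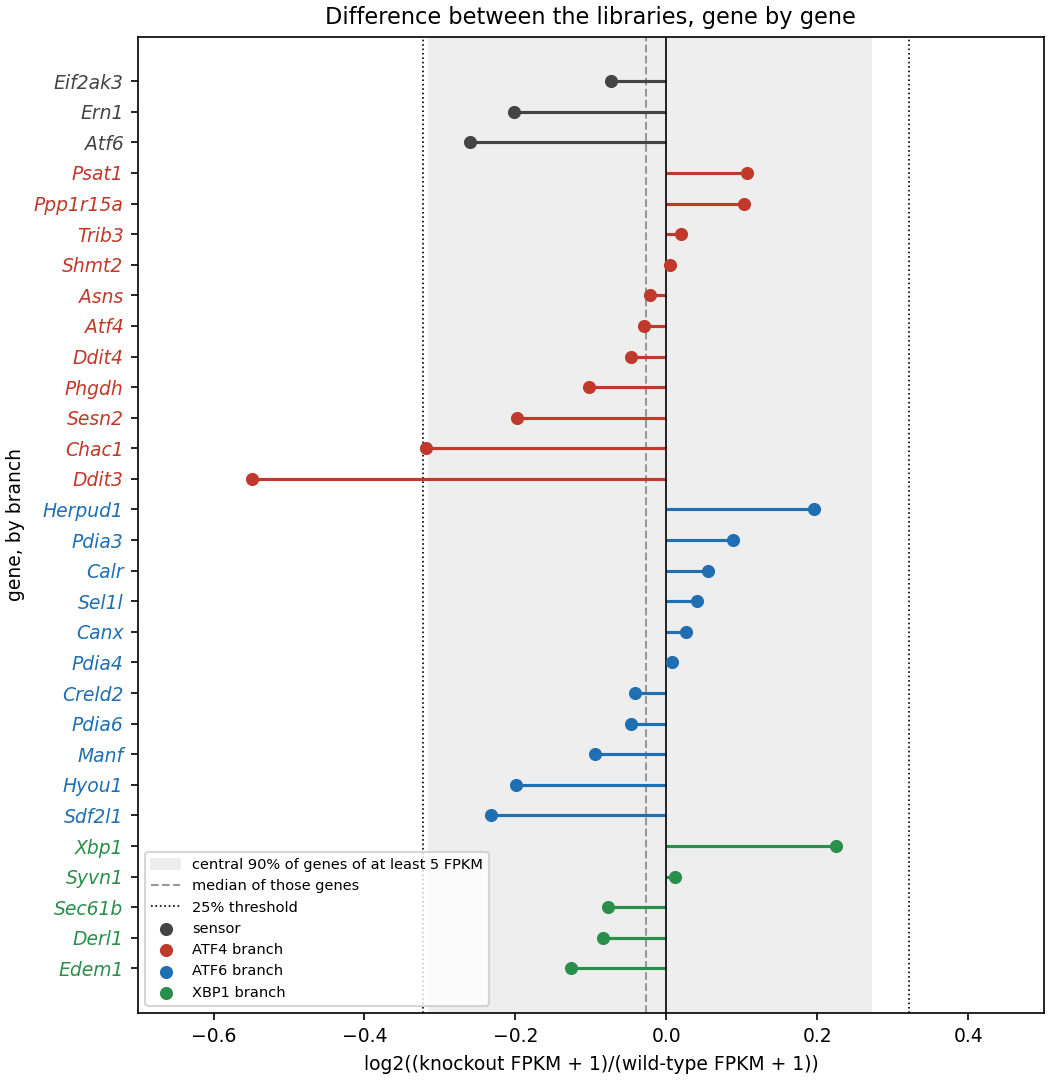
Difference of each of the 30 genes past the filter on the log2(FPKM + 1) scale, knockout over wild type, grouped as sensors and by branch; the grey band holds the central 90% of the 8687 genes of at least 5 FPKM, the dashed line is their median and the dotted lines mark the 25% threshold. Ddit3, at -0.55, is the point left of the lower dotted line, Chac1 stands at the edge of the band, and Xbp1 and Herpud1 are highest.

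The ATF6 branch, 9 chaperones and folding genes of the ER with the degradation genes Herpud1 and Sel1l, held the highest summed level, 764 FPKM in wild type against 781 FPKM in the knockout. Targets are shared between ATF6 and XBP1, so each gene was placed in 1 branch only. The 9 folding genes alone summed to 695 and 704 FPKM, with a median difference of -0.04, 4 higher and 5 lower. Over all 11 genes of the branch the median difference was 0.01, with 6 genes higher and 5 lower, and it was -0.10 over the genes whose row holds no assembled transcript. Calr, the lectin chaperone calreticulin and the most abundant gene of the set, was at 239 and 248 FPKM. Its membrane-bound relative Canx was at 83.4 and 84.9 FPKM. Both promoters hold an ER stress element.

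The protein disulfide isomerases were as close. Pdia3, which works with both lectin chaperones on glycoproteins, was at 163 FPKM in wild type against 174 FPKM in the knockout. Pdia6 was at 71.7 and 69.4 FPKM. Pdia4 was at 21.4 and 21.5 FPKM in a row that it shares with the microRNA gene Mir704. The largest of these 3 differences was 0.09, for Pdia3.

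The other 4 folding genes were lower in the knockout library, by small amounts. Over all 9 folding genes 5 were lower, beside 55.6% of all genes past the filter. Sdf2l1, an ER protein of the BiP folding cycle, was at 14.3 FPKM in wild type against 12.1 FPKM in the knockout, a difference of -0.23. Hyou1, a large relative of BiP that exchanges its nucleotide, was at 25.97 and 22.5 FPKM, a difference of -0.20. Creld2 and Manf encode ER-stress-induced proteins of the lumen. Creld2 was at 26.1 and 25.3 FPKM and Manf at 50.4 and 47.1 FPKM. None of these 4 passed the 25% threshold.

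ER-associated degradation sends misfolded proteins back to the cytosol through a membrane complex around the ubiquitin ligase HRD1 (Syvn1). Syvn1 was at 23.2 FPKM in wild type against 23.4 FPKM in the knockout, and its partner Sel1l at 16.6 and 17.1 FPKM. Herpud1, another part of the complex, was at 52.1 and 59.8 FPKM, a difference of 0.20 at percentile 91.0 of genes of at least 5 FPKM. Edem1, which hands misfolded glycoproteins to the complex, was at 20.3 and 18.5 FPKM. Derl1, a derlin of the channel, was at 14.5 and 13.6 FPKM.

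Derl3, a derlin characteristic of secretory cells, was at 0.191 FPKM in wild type against 0.418 FPKM in the knockout, resting on about 6 and 17 fragments. Both values were under the filter, and its difference moved from 0.83 to 0.06 between pseudocounts of 0.1 and 5 FPKM, so no fold is given. Plasma and B cell markers, whose cells are rich in this derlin, were near the floor as well, apart from Sdc1 at 197 and 177 FPKM, which keratinocytes also express and which makes up nearly all of the list's sum of 198 and 178 FPKM. Ms4a1 and Cd79b were listed at 0 in both libraries, and Igj at 0 and 0.028 FPKM. Sec61b, a subunit of the channel through which proteins enter the ER, was at 105 and 99.1 FPKM. The 5 genes of the XBP1 branch past the filter had a median difference of -0.08, with 2 higher, Xbp1 and Syvn1, and 3 lower. This share is near the 55.6% of all genes past the filter that were lower. All 5 lay inside the 25% threshold.

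**Figure D4:**
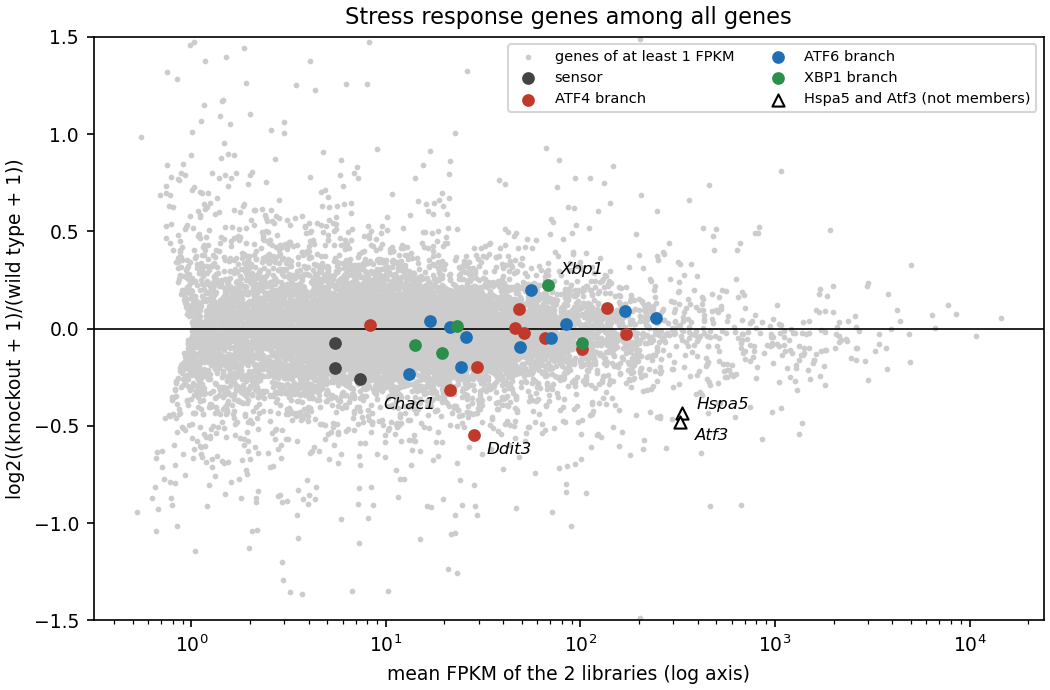
Mean FPKM of the 2 libraries (log axis) against the log2(FPKM + 1) difference, knockout over wild type, for all genes past the filter (grey) and the stress response genes by branch (coloured); triangles mark Hspa5 and Atf3, and 41 genes beyond 1.5 in size lie outside the axis. The coloured points sit within the grey cloud, with Ddit3 at -0.55 near its lower edge.

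The wider pathway was read from 9 further lists of 106 genes, of which 101 passed the filter. Of these 43 were higher and 58 lower in the knockout, beside 55.6% of all genes lower, and their median difference was -0.02. Past the 25% threshold, 4.59% of all genes were higher and 5.90% lower. Of the 101, 2 were higher, Eif2ak4 and Fgf21, and 4 were lower, Hspa5, Atf3, Srp54a and Ddr2. Fgf21 entered the 101 only through its knockout value, so its direction was set by the filter, and it rested on about 11 and 30 fragments. Creb3l4, lower but short of the 25% threshold, entered only through its wild-type value, which likewise set its direction. Hspa5, which encodes BiP, the chaperone that binds and silences the sensors, was at 381 FPKM in wild type against 282 FPKM in the knockout, a difference of -0.43. Its promoter also holds an ER stress element, 47 bases before the start. Hsp90b1, an ER chaperone whose promoter holds 2 such elements, was at 100.6 FPKM in both libraries. The median of the 10 ER chaperones outside the set was -0.02.

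Of 9 partners and stress factors of the ATF4 arm past the filter, 3 were higher and 6 lower, beside 55.6% of all genes lower. Their median was -0.01. Atf3, a stress-induced factor downstream of ATF4, was at 380.4 FPKM in wild type against 273 FPKM in the knockout, a difference of -0.48. Cebpb, a partner of CHOP, was at 330 and 343 FPKM. Fgf21, a stress hormone, was at 0.46 and 1.01 FPKM, and only its knockout value reached the filter. Ddr2, a collagen receptor of stromal cells, was at 5.14 and 2.34 FPKM, and the authors' deposited table gave it q = 0.041. Eif2ak4, or GCN2, the kinase that senses uncharged tRNA, was at 3.13 and 4.36 FPKM, a difference of 0.38 and the highest among the eIF2 kinase, eIF2 and eIF2B genes, whose median was -0.03. Eif2s1, the phosphorylated subunit, was at 37.1 and 33.6 FPKM.

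Supply and folding genes outside the set were close to level. P4hb, the classical protein disulfide isomerase, was at 261 FPKM in wild type against 259 FPKM in the knockout, and Erp29 at 77.5 and 91.6 FPKM. Amino acid transport and synthesis genes had a median of -0.08, with 4 higher and 10 lower, beside 55.6% of all genes past the filter that were lower. Among them, Slc7a5 was at 36.7 and 30.4 FPKM, Got1 at 40.5 and 33.3 FPKM and Mthfd2 at 11.2 and 9.28 FPKM. Among aminoacyl-tRNA synthetases, which ATF4 is known to activate, the median was 0.03, with Gars at 99.0 and 88.9 FPKM and Lars at 21.5 and 26.8 FPKM. The degradation list had a median of -0.01, with Vcp, the segregase, at 147 and 137 FPKM. The translocation list also had a median of -0.01, from -0.56 for Srp54a, which has near-identical copies and is uncertain, to 0.12. ER-bound factors and their proteases had a median of -0.04, with Atf6b at 29.3 and 31.04 FPKM and Creb3l4 at 1.02 and 0.623 FPKM. Only the wild-type value of Creb3l4 reached the filter, so its direction was set by the filter.

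Among lists of other cell types with more than 1 marker past the filter, 3 had a median lower than that of the sensors or any branch. Langerhans cell markers summed to 748 FPKM in wild type against 516 FPKM in the knockout, with 7 of 8 lower past the 25% threshold, 0 listed at 0 and a median difference of -0.62. Of 6 hair follicle markers past the filter, 5 were lower past the threshold, with a median of -0.38, while Msx2, at 11.3 and 12.5 FPKM, was higher and dominates their sum. Krt28, at 1.09 and 0.60 FPKM, and Krt35, at 1.03 and 0.59 FPKM, passed the filter only through the wild-type library, which set their direction. Lef1, at 0.16 and 0.20 FPKM, was under the filter. All 6 melanocyte markers were lower, beside 55.6% of all genes past the filter. Past the threshold were 2 of them, and the median was -0.26. Tyr, at 1.24 and 0.83 FPKM, also passed the filter only through the wild-type library, which set its direction. Fewer cells of a type and less RNA per cell cannot be told apart in such bulk samples. Immediate early and heat shock genes, which also respond to tissue handling, were lower in 12 of 13 cases, beside 55.6% of all genes, with a median of -0.15, and summed to 6638 and 6187 FPKM. Past the 25% threshold 3 of the 13 were lower, Klf2 and the heat shock genes Hsph1 and Dnajb1, beside 5.90% of all genes. Immediate early genes such as Junb, at -0.02, and Egr1, at 0.10, were near level. The part of these shifts in the lower Ddit3 and Hspa5 values was not tested.

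**Figure D5:**
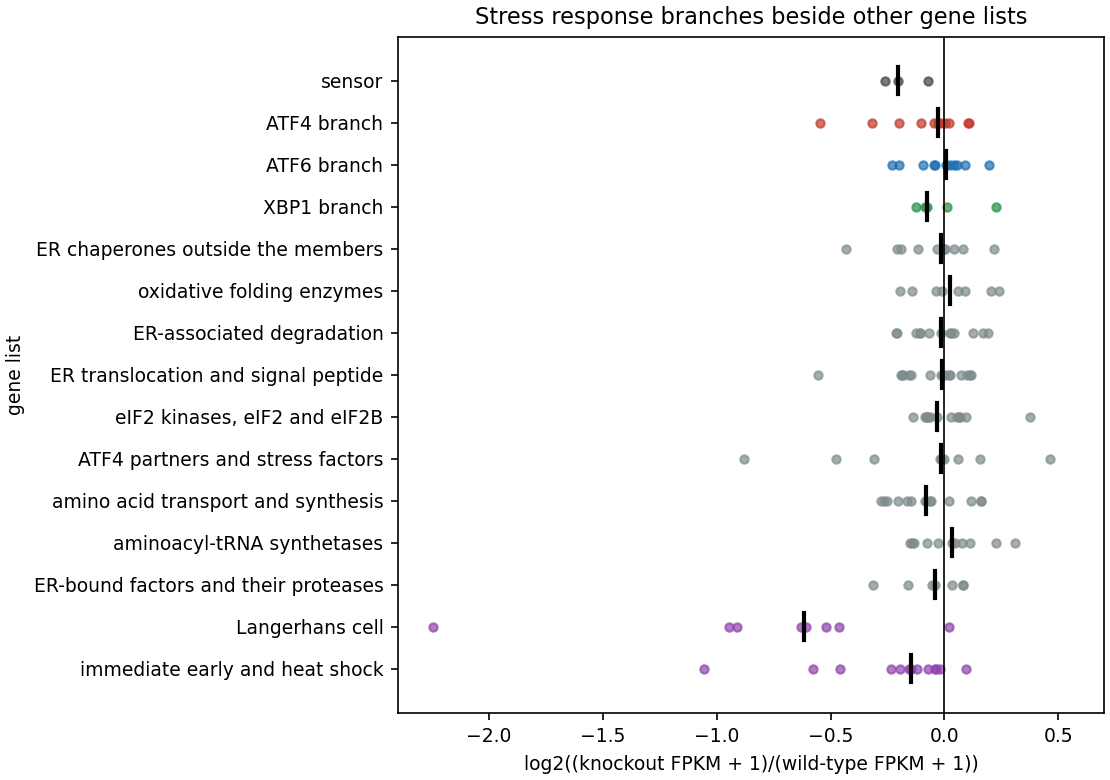
Differences of single genes (points) and list medians (black bars) on the log2(FPKM + 1) scale, knockout over wild type, for the sensors, the 3 branches, 9 further pathway lists, Langerhans cell markers, and immediate early and heat shock genes. The medians of the 3 branches lie between -0.08 and 0.01, while that of the Langerhans markers is -0.62.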

How the data were processed

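RNA-seq values of 2 libraries were used, 1 per genotype, from ear epidermis separated with dispase II. Per the submitters' processing notes, TopHat2 2.0.13, Cufflinks 2.2.1 and mm10 were used; annotation release, options, strandedness and scaling were not given in the sources used. The authors deposited FPKM per locus, per the file headers, and beside it their own log2 fold change, test statistic (a score), p-value and q-value for the 2 libraries, which were copied and not recomputed.

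Rows with a gene name and a RefSeq transcript (26264 of 29246) were summed by name; the rest were left out. Genes of at least 1 FPKM in either library were compared on log2(FPKM + 1). FPKM divides by length, and 14 of the 31 rows also hold transcripts assembled from the reads, which can change their level. Depth was estimated by taking the lowest step of FPKM times length, over single-transcript genes of 3 to 12 kb, as 1 fragment; the next step lay at a ratio of 2.01 and 2.00. Fragment numbers are estimates, so no counting interval is given. With 1 library per genotype no test was made.

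The members, branches and lists were chosen with earlier results of these data known, and the immediate early list and the division by role were added last. Named beside the members are, per list, up to 3 genes of largest difference and 2 of highest level, from which the text takes examples; Hsp90b1, Igj, Ms4a1 and Cd79b were also picked for what they encode. Gene positions are from GENCODE M21 (GRCm38, the assembly of mm10). The steps were tested on simulated data. Alternatives were other pseudocounts, filters, scalings and folds. Python 3.11.15, numpy 2.4.6, pandas 2.3.3 and matplotlib 3.10.9 were used.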

Additional observations from a re-analysis of the deposited data

How the results depend on the processing

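No paired analysis was possible because there was 1 library per genotype, and for the same reason no library could be left out. A median or difference was taken as moved when it changed by 0.05 or more. The medians of the whole set and of the ATF4 and XBP1 branches moved by less than that under every alternative run. The ATF6 median became -0.10 among members whose row holds no assembled transcript, an alternative added after the data were seen that keeps fewer genes. Members lower past the 25% threshold numbered 2 with a pseudocount of 0.1 FPKM, which adds Chac1 to Ddit3, and 0 at 1.5-fold or 2-fold. Of 124 single-gene values, 6 moved, all with another pseudocount, and 0 of those past the 25% threshold changed sign; Ddit3 was at -0.48 with a pseudocount of 5 FPKM. Over all genes, the 49 higher and 41 lower at 2-fold became 100 and 103 when the pseudocount was 0.1 FPKM, 16 and 16 when it was 5 FPKM, 156 and 171 at 1.5-fold, and 24 and 28 with a filter of 5 FPKM, where more genes were lower than higher.

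With 1 library each, a difference between genotypes cannot be told apart from a difference between the animals or dissections sampled. Gene-level FPKM shows neither Xbp1 splicing nor eIF2-alpha phosphorylation nor ATF4 protein, through which these pathways mainly act. Short and low genes, Derl3 above all, have imprecise values.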

Other observations

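Exact amino acid response elements were also found in promoters of genes outside the set, and their levels between the libraries did not share a direction. The genes described here are examples, and some others with the element lay near 0, with Tars at -0.03, Vldlr at -0.01 and Yars at -0.08. Atf3 holds one 103 bases before its start and differed by -0.48, and Got1 holds one 95 bases before its start and differed by -0.28. Aars, in a row merged with Exosc6, holds one 105 bases before its start and was at 30.5 FPKM in wild type against 35.9 FPKM in the knockout, a difference of 0.23. Slc7a11, the cystine transporter, holds 2 and was at 2.77 and 3.22 FPKM, a difference of 0.16. Nupr1, a stress-induced chromatin protein, holds one 103 bases before its start and was at 59.4 and 66.3 FPKM, also a difference of 0.16. Of the aminoacyl-tRNA synthetase genes with a promoter entry, 4 of 7 held the element, beside 0.895% of all promoter windows, and of the ER chaperone genes outside the set, 5 of 8 held at least 1 of the 4 elements, beside 1.7% of all windows. These genes were picked for their matches, and no binding was measured.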
